A study of Mus musculus with 6 samples.

Results

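The nuclear genes of respiratory complexes III, IV and V, with cytochrome c, were followed in the whole kidney of pups of iron-starved dams. They were taken by name, without use of their values: every gene of the count tables whose symbol begins with Uqcr, with Cox4 to Cox8 or with Atp5, together with Cyc1 and Cycs, pseudogene symbols excluded. The set itself was chosen with earlier results of these data known. The rule gave 45 of the 24422 genes in the tables, of which 9 belong to complex III, 1 is cytochrome c, 18 carry complex IV names and 17 carry complex V names. The names fit the complexes except for 3 genes: Cox7a2l encodes a factor described as joining complexes into supercomplexes, Atp5s encodes the coupling factor B, and Atp5sl is now known as Dmac2, a complex I assembly factor. FeD denotes wild type C57BL/6 pups whose dams, 8 weeks old, were fed synthetic chow of 2 to 6 ppm iron. Control pups, also wild type C57BL/6, came from dams of that age on a diet with 220 ppm iron. Both diets ran, per the labels, from 1 month before mating (the methods give 3 weeks) through pregnancy and up to kidney collection at postnatal day 15 (P15). Each group had 3 kidneys, described as biological replicates. The diet was given to the dam and the litters are not named, so litter and diet cannot be told apart.

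Complex III passes electrons from ubiquinol through the Rieske iron-sulfur protein and heme-bearing cytochrome c1 to cytochrome c, a small soluble heme protein. Complex IV, cytochrome c oxidase, takes them with its hemes and copper to oxygen, and complex V, the ATP synthase, uses the resulting proton gradient to make ATP. Kidney tubules, above all the proximal tubule, depend on this route for the energy of reabsorption, and complexes III and IV cannot be built without iron.

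Reads of polyadenylated RNA were counted per gene, and the raw counts summed to 16189041 to 20374327 in control and 13732173 to 20853293 in FeD kidneys. At these depths 3 counts, taken as the smallest readable signal, equal 0.144 to 0.218 CPM (counts scaled to a library of 1e+06), a limit that covers counting error only. The values below are normalized counts, scaled to a common library size by TMM, and fold changes are FeD over control on the log2 scale from edgeR's quasi-likelihood test over 15145 tested genes, called at an adjusted P (Padj) under 0.05. Nephron markers identified kidney in all 6 libraries, and the hemoglobin genes Hba-a1 and Hbb-b1 were listed at 0 counts in all. Slc4a1, read here from a list of erythroid genes, had a mean of 2450 counts in control and 907 in FeD kidneys. Whether those counts come from erythroid cells and the reason for the hemoglobin zeros were not tested. The 6 subunits of these complexes that the mitochondrial genome encodes were not analysed here, because 0 of them were found in the count tables under the symbols sought. In whole kidney, fewer cells of a type and less RNA per cell cannot be told apart.

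Of the 45 genes, 43 had enough counts to be tested, and 39 were downregulated in FeD kidneys, where 23.3% of all tested genes were lower. Only Cox7a2l was upregulated (22.4% of all tested genes were higher), and Atp5g2, Atp5s and Cox4i2 did not pass the test. The median log2 fold change was −0.58, which is 66.9% of the control level, beside a median of −0.0018 over all tested genes. All FeD kidneys lay below all control kidneys for 40 of the 43 genes (29.7% of all tested genes), all lay above for Cox7a2l (28.4%), and the groups overlapped for Atp5g2 and Atp5s. Most changes were under 2-fold: 5 genes fell by at least 2-fold (5.69% of all tested genes) and 0 rose by as much (4.34%). The counts of 12 genes are uncertain because their coding sequence has near-identical copies elsewhere in the genome (at least 98% identity over at least 100 bases). The copies cover all of it for Atp5g1, Atp5g2, Atp5h, Atp5l, Cox5b, Cycs, Uqcr11 and Uqcrb, and 90.3% for Atp5f1, 79.3% for Cox7c, 49.6% for Cox7a2l and 28.4% for Atp5j. Where the mean normalized count reached 1000, 35 of the 37 respiratory genes were lower, against 25.1% of all such genes.

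**Figure D1:**
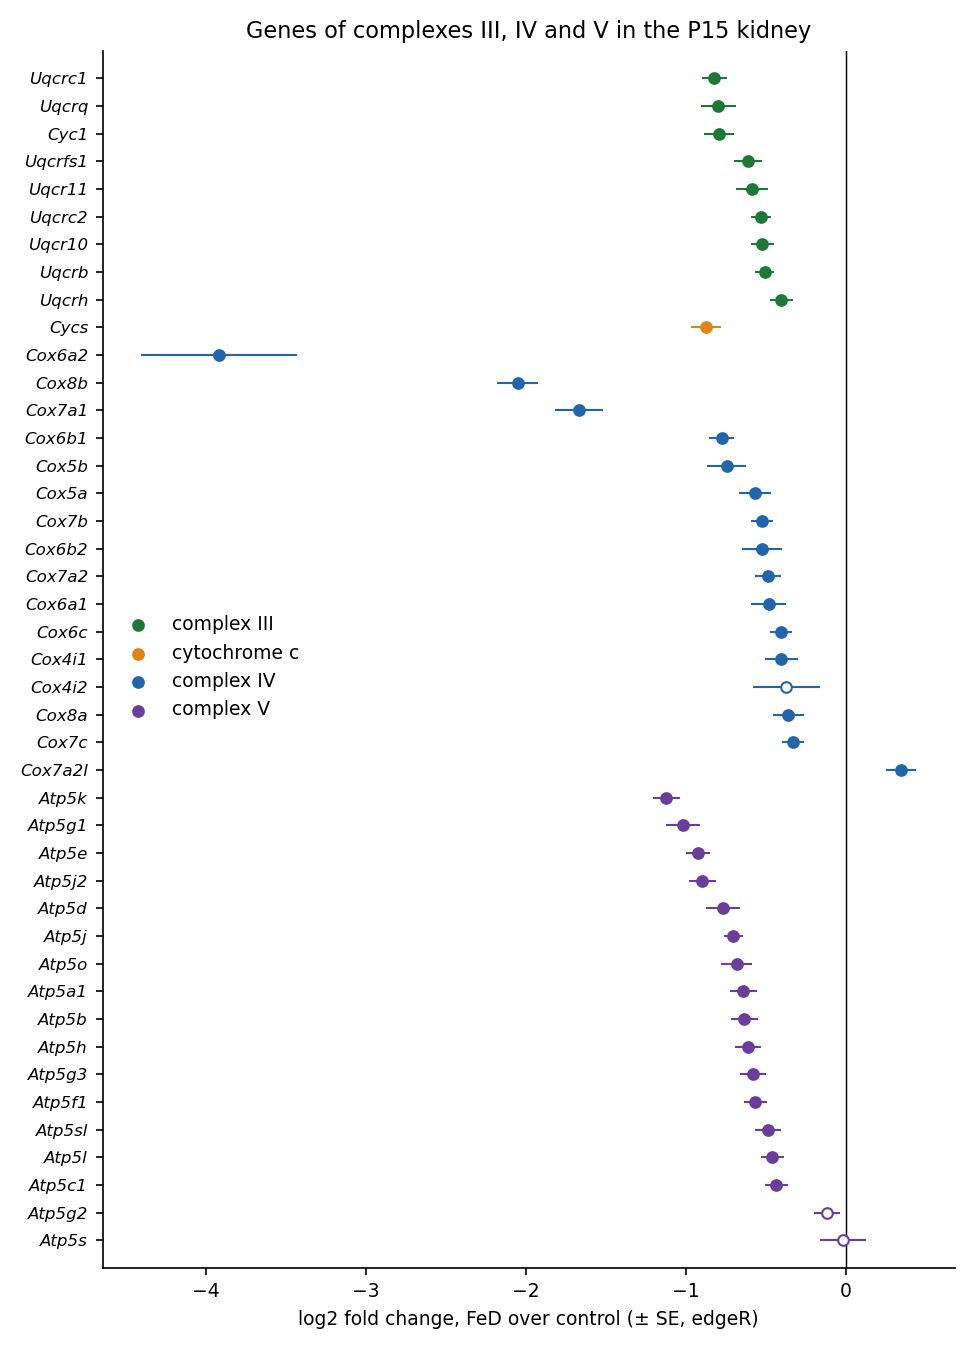
Log2 fold change (FeD over control, ± SE from edgeR, horizontal axis) of the 43 tested genes, grouped by complex and ordered by size. Filled points passed Padj under 0.05 and open points did not; all filled points lie left of 0 except Cox7a2l at 0.35, and the 3 furthest left are Cox6a2, Cox8b and Cox7a1.

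Summed over all 45 genes, the raw counts made up 1.91% to 2.05% of the library in control kidneys and 1.27% to 1.40% in FeD kidneys. After TMM scaling the FeD sum was 66.4% ± 3.45 (SD, n = 3) of the control mean. It was 64.5% ± 2.98 for complex III, 54.6% ± 5.82 for cytochrome c, 73.5% ± 5.33 for complex IV and 64.7% ± 3.11 for complex V. In each FeD kidney cytochrome c was the furthest below the control mean (48.5% to 60.1%) and complex IV the least (69.7% to 79.6%). The difference between complexes was not tested.

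Within groups the genes also moved together. Control kidney 1 was the lowest of the controls in 39 of the 43 genes (in 36.8% of all tested genes), and FeD kidney 1 was the highest of the FeD kidneys in 32 (30.7% of all tested genes). This order within groups was small beside the difference between them. The coefficient of variation over the 37 genes with at least 1000 normalized counts had a median of 6.16% in control (2.88% to 10.1%) and 7.63% in FeD kidneys (1.91% to 17.1%).

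**Figure D2:**
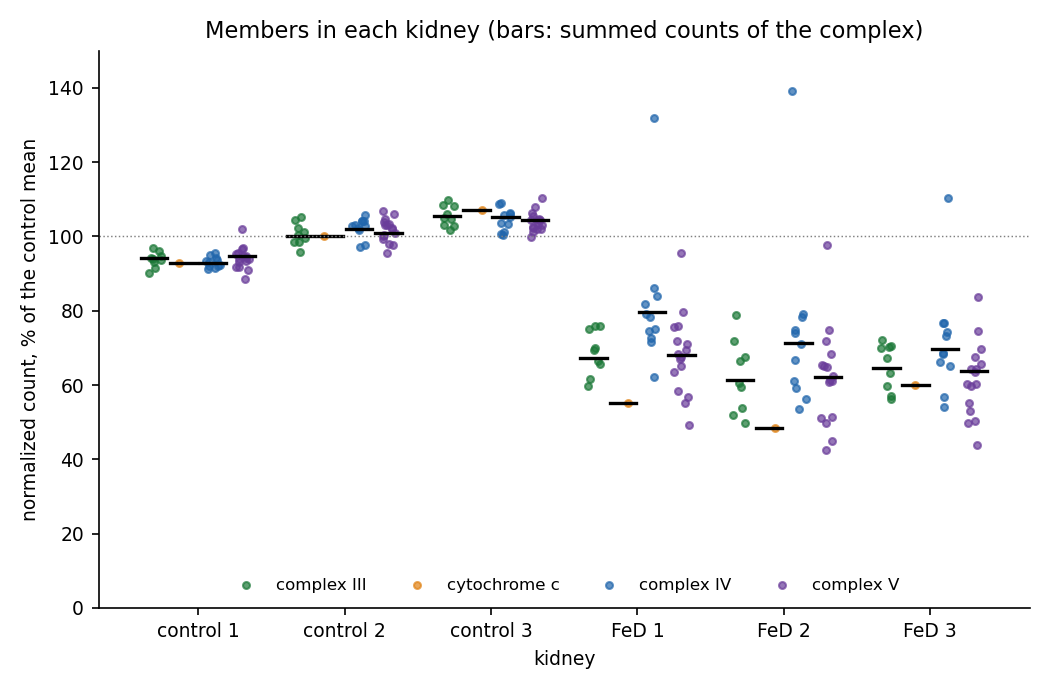
Normalized counts as a percentage of the control mean (vertical axis) in each of the 6 kidneys, for the 37 genes with a control mean of at least 1000 (points, by complex) and for the summed counts of each complex (black bars). Control kidney 1 lies under 100% for nearly every gene; in FeD kidneys the bars lie between 48.5% and 79.6%, and the points above 100% are Cox7a2l.

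Compared per length, as CPM per kilobase of the median annotated coding transcript, Atp5b had the highest level in control kidneys (1910 ± 86.0, SD, n = 3), followed by Atp5g3 (1360 ± 82.8), Cox4i1 (1216 ± 89.4) and Atp5a1 (1168 ± 54.5). The last 2 differed by less than their spread. In FeD kidneys Atp5b again had the highest level (1230 ± 59.4), and Cox4i1 (919.9 ± 102) and Atp5g3 (910.0 ± 58.3) did not differ beyond their spread. The lowest levels among genes with counts in all kidneys were those of Cox4i2 (3.49 ± 0.303) and Cox6a2 (4.57 ± 0.591) in control kidneys.

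All 9 genes of complex III were downregulated, by a median of −0.59. Uqcrc1 encodes a core protein and had 9784, 10355 and 11016 normalized counts in control kidneys and 6206, 5588 and 5830 in FeD kidneys (log2 fold change −0.82 ± 0.08 SE, Padj = 0.00015). Cyc1 encodes cytochrome c1, the heme-bearing subunit that hands electrons to cytochrome c, and had 8441, 8923 and 9840 counts against 5581, 4699 and 5406 (−0.79 ± 0.09, Padj = 0.00038). Uqcrq, a small supernumerary subunit, had 3137, 3373 and 3761 counts against 2250, 1703 and 1949 (−0.80 ± 0.11, Padj = 0.00077). For each of these genes the groups were far apart, with no FeD kidney near the lowest control kidney. The Rieske protein Uqcrfs1 fell by 0.61 on the log2 scale. The other 5 genes fell by less than that, Uqcrh, the acidic hinge protein of cytochrome c1, least of all (−0.40 ± 0.07, Padj = 0.0026).

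Cycs, which encodes the cytochrome c that carries electrons from complex III to complex IV, had 6269, 6760 and 7239 counts in control kidneys and 3725, 3277 and 4061 in FeD kidneys. The highest FeD kidney was well under the lowest control kidney, and the log2 fold change was −0.87 ± 0.10 (Padj = 0.00028). As given above, its count is uncertain because of its copies.

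Complex IV holds subunits with a single nuclear gene and subunits with a widely expressed isoform and a tissue-restricted one. The 10 genes of the first kind and of the widely expressed isoforms were all downregulated, with a median of −0.48. They ranged from Cox6b1, a subunit facing the cytochrome c side (6728, 7509 and 7683 counts in control against 4537, 4117 and 4149 in FeD kidneys, −0.78 ± 0.08, Padj = 0.0002), to Cox7c (−0.33 ± 0.07, Padj = 0.0056). Cox4i1, the ubiquitous isoform of the largest nuclear-encoded subunit, had 13559, 14994 and 15685 counts in control and 12062, 11656 and 9745 in FeD kidneys (−0.40 ± 0.10, Padj = 0.013). Cox8a, a small ubiquitous subunit, had 8604, 9716 and 9974 against 8125, 6701 and 7243 (−0.36 ± 0.10, Padj = 0.016). The groups of both genes did not overlap but came close, and the highest FeD kidney was FeD kidney 1 in both. Both calls were lost when control kidney 2 was left out (Padj = 0.053 for Cox4i1 and 0.066 for Cox8a) or control kidney 3 (0.058 and 0.067). Cox6a1 had 9286, 9567 and 10707 against 7801, 6026 and 7320 counts (−0.48 ± 0.11, Padj = 0.0076). After a correction of the counts for exon length, chosen after seeing the data, Cox6a1 (−0.30, Padj = 0.06) and Cox8a (−0.18, Padj = 0.14) no longer passed.

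Of 121 well-covered genes with under 1000 exon bases, a class that holds only some of the 37, 63 were lower in FeD kidneys. With the 45 genes left out, 51 of 108 were lower, beside 25.1% of all well-covered genes. The median of these 108 was −0.19, while the median over all 4565 well-covered genes was 0.04. With the correction for exon length 37 of the 43 genes were still lower, and the median of the 43 was −0.46 in place of −0.58.

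The largest falls of all were those of 3 complex IV isoforms known from heart and skeletal muscle. Cox6a2 (mm9 chr7:135348950-135349880) had 49, 55 and 60 raw counts in control kidneys and 7, 2 and 1 in FeD kidneys. Its summed counts per library total were 15.7-fold lower in FeD kidneys, with a 95% counting interval of 8.31 to 33.3 (log2 fold change −3.92 ± 0.49, Padj = 5e-04). That interval pools the reads of each group and leaves out the spread between kidneys. Without FeD kidney 1 the log2 fold change was −4.97. Cox8b (chr7:148084842-148086345) had 272, 319 and 315 normalized counts against 74, 78 and 67 (−2.05 ± 0.13, Padj = 3.2e-05). Cox7a1 (chr7:30969190-30971047) had 329, 383 and 438 against 129, 132 and 102 (−1.67 ± 0.15, Padj = 0.00013). No FeD kidney came near the lowest control kidney in any of them, and all were rare in control kidneys beside their ubiquitous partners: Cox8b counts made up 3.06% to 3.17% of Cox8a plus Cox8b in control and 0.902% to 1.15% in FeD kidneys, and Cox7a1 counts 7.50% to 9.04% of Cox7a2 plus Cox7a1 in control and 3.46% to 3.94% in FeD kidneys.

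The log2 ratio of Cox8b to Cox8a differed by −1.69 and that of Cox7a1 to Cox7a2 by −1.18 (FeD minus control). In an exact two-sided permutation test over kidneys both had P = 0.10, the smallest that 3 against 3 allows, and 0.117 after Benjamini-Hochberg adjustment over the 7 pairs tested. Neither can therefore pass the threshold in this design, although the 3 FeD ratios lay below the 3 control ratios in both pairs.

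Fat markers and 1 heart marker were lower beside these isoforms, which brown fat and striated muscle are known to express. The brown fat genes Ucp1, Cidea and Adrb3 were all lower (3 of 3 tested). Ucp1, the uncoupling protein of brown fat, had 830, 627 and 1004 counts in control and 19, 79 and 259 in FeD kidneys (−2.74 ± 0.62, Padj = 0.0081), and Cidea, a lipid droplet protein, had 645, 718 and 739 against 229, 330 and 119 (−1.66 ± 0.29, Padj = 0.0025). The 4 brown fat genes summed to 1381 to 1770 normalized counts in control and 264 to 462 in FeD kidneys, with Elovl3 at 2.21 to 48.0 and not tested. Of the 4 white fat genes, 3 were lower (sum 2201 to 2498 against 475 to 762), Lep being the exception. Of the 3 heart genes 2 were tested and Myh6 was lower (sum 54.6 to 78.3 against 28.5 to 50.6), with Actc1 at 0 to 1.30. Of the 6 striated muscle genes 2 were tested and 0 were called (sum 30.2 to 53.1 against 22.4 to 384), the highest sum being FeD kidney 1, the only library with Myh1 (172 counts). FeD kidney 1 also had the most Cox6a2 of the FeD kidneys but not the most Ucp1, which was highest in FeD kidney 3. The part of fat, heart or muscle RNA in the fall of the isoforms was not tested.

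**Figure D3:**
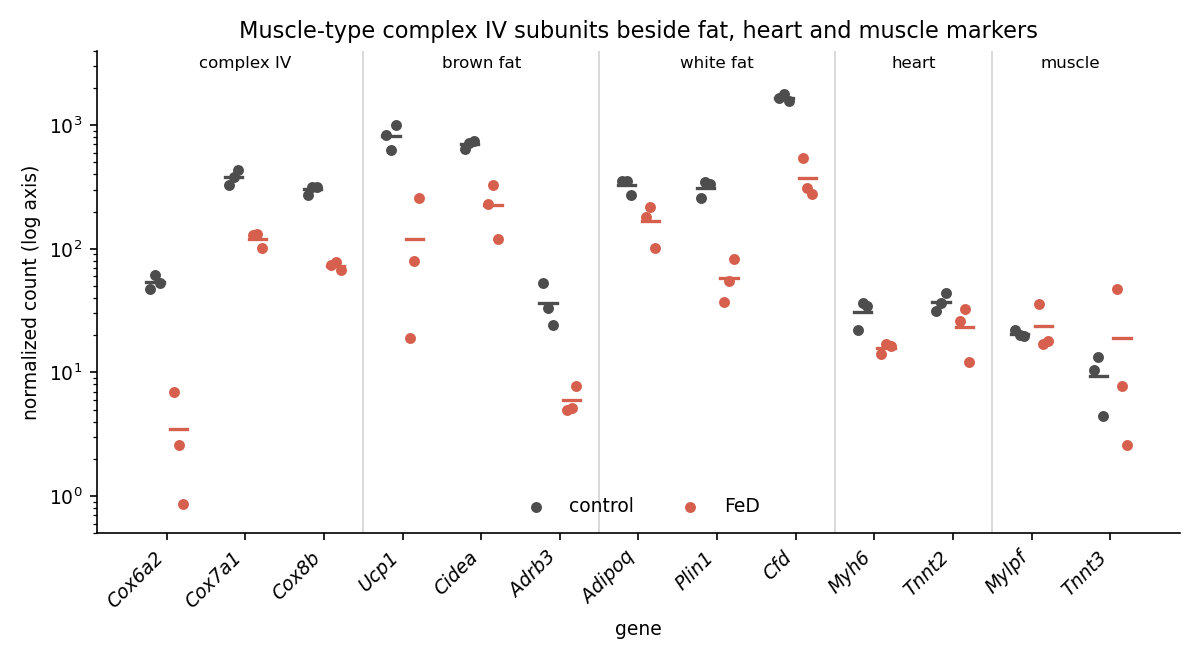
Normalized counts (log axis) of Cox6a2, Cox7a1 and Cox8b beside brown fat, white fat, heart and striated muscle genes in each control and FeD kidney, with bars at the group means. The isoforms and the brown and white fat genes shown do not overlap between the groups, while Tnnt2, Mylpf and Tnnt3 do.

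The remaining isoforms of complex IV moved in several ways. Cox4i2, the isoform described as induced by low oxygen, had 47.9, 47.6 and 40.9 normalized counts in control and 38.0, 32.5 and 34.5 in FeD kidneys. All FeD kidneys lay below the controls, but the test was not passed (−0.37 ± 0.21, Padj = 0.18), and its log2 ratio to Cox4i1 differed by 0.03 between groups (exact permutation P = 0.9). Cox6b2, best known from testis, was lower (474, 545 and 624 against 418, 387 and 339, −0.52 ± 0.12, Padj = 0.0096), less so than Cox6b1, so that its log2 ratio to Cox6b1 was 0.26 higher in FeD kidneys (exact permutation P = 0.10, adjusted 0.117). Both other testis isoforms were near the limit of detection. Cox7b2 had 0 counts in all kidneys and Cox8c had 1 count, in FeD kidney 1.

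Cox7a2l was the only gene that rose. It is a relative of Cox7a2 and is described as binding complexes III and IV into supercomplexes. Whether its product does so in these pups was not tested. Its gene lies at mm9 chr17:83901259-83913673, and 49.6% of its coding sequence has near-identical copies elsewhere, so its count is uncertain. Cox7a2l had 4031, 4385 and 4225 counts in control and 5554, 5860 and 4650 in FeD kidneys (log2 fold change 0.35 ± 0.09, Padj = 0.017). Cox7a2 had 4054, 4612 and 4405 in control and 3273, 3229 and 2842 in FeD kidneys (−0.48 ± 0.08, Padj = 0.0019). The counts of Cox7a2l and Cox7a2 were about level in each control kidney (ratio 0.951 to 0.994), and Cox7a2l was ahead in each FeD kidney (1.64 to 1.81). Their log2 ratio was 0.82 higher in FeD kidneys (exact permutation P = 0.10, adjusted 0.117). The rise of Cox7a2l alone was not called when control kidney 1 (0.31, Padj = 0.071) or control kidney 3 (0.35, Padj = 0.057) was left out.

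Of the 17 genes with complex V names, 15 were downregulated, with a median of −0.63. The F1 head, which makes the ATP, was lower in all 5 of its genes (median −0.64). Atp5b, the catalytic beta subunit, had 62369, 65449 and 68250 counts in control and 44167, 40103 and 42021 in FeD kidneys (−0.63 ± 0.09, Padj = 0.00073), and Atp5a1, the alpha subunit, had 49069, 51671 and 53875 against 34548, 31487 and 33124 (−0.64 ± 0.08, Padj = 0.00063). Those genes had the most counts of all 45, and their groups lay apart by more than the range within either group. Atp5e, the epsilon subunit of the central stalk, fell most within the head (3425, 3848 and 3747 against 2089, 1880 and 1829, −0.93 ± 0.07, Padj = 7.6e-05), and Atp5c1, the gamma subunit, fell least (−0.43 ± 0.07, Padj = 0.0019).

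The 4 peripheral stalk genes, which hold the head still against the rotor, were all lower (−0.70 for Atp5j to −0.56 for Atp5f1). The membrane subunits e, f and g, which sit at the interface of ATP synthase dimers, were lower in 3 of 3. Atp5k, subunit e, had 2932, 3543 and 3472 counts in control and 1629, 1489 and 1452 in FeD kidneys (−1.12 ± 0.09, Padj = 6.3e-05), which left 45.9% of the control level. Atp5j2, subunit f, followed at −0.90 ± 0.08, and Atp5l, subunit g, whose count is uncertain because of its copies, at −0.46 ± 0.07. Atp5sl fell by 0.49 on the log2 scale, and Atp5s had 212, 241 and 204 counts against 190, 260 and 201 with overlapping groups (−0.02 ± 0.15, Padj = 0.93). Reads of Atp5o and Cox5a are less certain because 44.0% and 38.7% of their exon bases overlap other annotated genes and the strand setting of the counting is not given.

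The ring of c subunits, which turns in the membrane as protons pass, is made from 3 genes whose mature proteins are the same, shown here by the coding sequence of the mature part. The last 228 bases of the coding sequence, stop codon included, are printed 5′ to 3′ from the annotated transcripts (GENCODE vM1, mm9), with capitals where the 3 genes differ.
Atp5g1: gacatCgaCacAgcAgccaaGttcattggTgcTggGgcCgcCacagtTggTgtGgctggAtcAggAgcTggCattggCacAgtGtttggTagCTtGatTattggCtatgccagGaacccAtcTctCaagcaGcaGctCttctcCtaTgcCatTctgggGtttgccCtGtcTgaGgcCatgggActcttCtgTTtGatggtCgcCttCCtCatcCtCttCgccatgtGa
Atp5g2: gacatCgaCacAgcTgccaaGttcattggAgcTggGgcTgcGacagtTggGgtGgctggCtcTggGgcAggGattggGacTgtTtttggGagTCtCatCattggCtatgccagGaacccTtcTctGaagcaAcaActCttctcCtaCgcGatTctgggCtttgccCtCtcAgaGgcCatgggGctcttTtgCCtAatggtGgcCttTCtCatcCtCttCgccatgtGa
Atp5g3: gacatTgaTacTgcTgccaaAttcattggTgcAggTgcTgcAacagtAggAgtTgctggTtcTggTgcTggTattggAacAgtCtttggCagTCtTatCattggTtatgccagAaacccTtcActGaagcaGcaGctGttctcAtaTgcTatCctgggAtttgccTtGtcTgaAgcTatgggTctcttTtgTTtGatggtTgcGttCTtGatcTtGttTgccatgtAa
The 75 residues translated from these stretches were identical in all 3, while 58 of the 228 bases differed. Atp5g1 and Atp5g2 shared 194 bases and an identical run of at most 21, Atp5g1 and Atp5g3 shared 182 with a run of at most 11, and Atp5g2 and Atp5g3 shared 179 with a run of at most 8. Reads of 100 bases from these stretches therefore differ between the 3 genes. The coding sequences of Atp5g1 and Atp5g2 do have near-identical copies at other places in the genome over their full length, which makes their counts uncertain, and that of Atp5g3 has none.

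The 3 c-subunit genes did not fall alike. Atp5g1 (mm9 chr11:95930166-95936984) had 6003, 6248 and 6896 counts in control and 3524, 2711 and 3210 in FeD kidneys (−1.02 ± 0.11, Padj = 0.00021). Atp5g3 (chr2:73746504-73749383) had 16322, 17605 and 18431 against 12520, 11410 and 11096 (−0.58 ± 0.08, Padj = 0.001). Atp5g2 (chr15:102493299-102501478) had 3948, 4168 and 4463 against 4000, 4096 and 3512 and was not called (−0.12 ± 0.08, Padj = 0.27). Atp5g1 and Atp5g3 were lower in every FeD kidney, whereas the groups overlapped for Atp5g2, whose value was 0.07 under the correction for exon length.

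As a share of the counts of the 3 genes, Atp5g1 went from 22.8% ± 0.43 (SD, n = 3) in control to 16.8% ± 1.70 in FeD kidneys, and Atp5g2 from 15.0% ± 0.08 to 20.7% ± 1.54. The share of Atp5g3 was 62.3% ± 0.50 in control and 62.5% ± 0.18 in FeD kidneys. Atp5g1 thus had more counts than Atp5g2 in each control kidney and fewer in each FeD kidney. The log2 ratio of Atp5g1 to Atp5g3 differed by −0.45 and that of Atp5g2 to Atp5g3 by 0.46 (FeD minus control), with an exact permutation P = 0.10 (adjusted 0.117) for each.

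**Figure D4:**
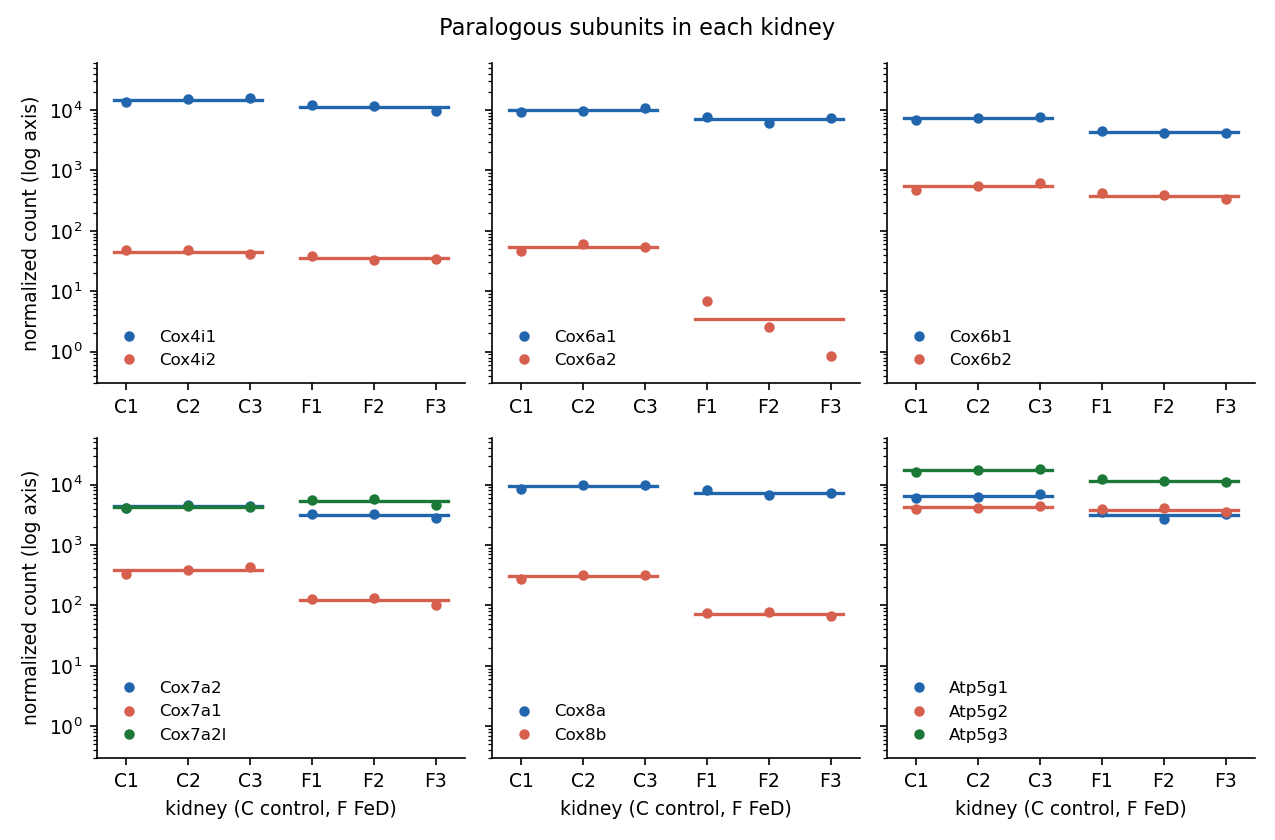
Normalized counts (log axis) of the paralogous subunits in each kidney (C1 to C3 control, F1 to F3 FeD), with bars at the group means. Cox6a2, Cox7a1 and Cox8b drop further than their partners, Cox7a2l separates upward from Cox7a2, and Atp5g1 drops from above Atp5g2 to below it.

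The 3 genes share a product and not their upstream sequence, so the promoters of these 3 genes and of Atp5k, the gene of complex V with the largest fall, are shown. They are the 250 bases before the gene start, 5′ to 3′ on the gene's strand, from RefSeq (GRCm38.p6, a later build than the mm9 of the counts). Capitals mark matches on either strand to the motifs of 4 regulators: NRF1 (GCGCANGCGC), the estrogen-related receptors (AAGGTCA), GABP (CCGGAAG) and the hypoxia-inducible factors (ACGTG).
Atp5g1 (chr11:96075632-96075881, minus strand): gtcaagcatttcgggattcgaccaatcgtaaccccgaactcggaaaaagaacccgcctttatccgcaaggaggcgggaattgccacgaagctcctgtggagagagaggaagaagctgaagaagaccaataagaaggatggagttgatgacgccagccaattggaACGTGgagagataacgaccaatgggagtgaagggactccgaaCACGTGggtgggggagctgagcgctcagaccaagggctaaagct
Atp5g2 (chr15:102671048-102671297, minus strand): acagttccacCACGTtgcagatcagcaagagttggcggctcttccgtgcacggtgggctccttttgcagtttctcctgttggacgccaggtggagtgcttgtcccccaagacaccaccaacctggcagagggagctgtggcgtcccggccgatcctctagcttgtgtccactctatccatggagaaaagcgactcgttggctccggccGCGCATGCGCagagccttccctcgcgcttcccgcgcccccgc
Atp5g3 (chr2:73911327-73911576, minus strand): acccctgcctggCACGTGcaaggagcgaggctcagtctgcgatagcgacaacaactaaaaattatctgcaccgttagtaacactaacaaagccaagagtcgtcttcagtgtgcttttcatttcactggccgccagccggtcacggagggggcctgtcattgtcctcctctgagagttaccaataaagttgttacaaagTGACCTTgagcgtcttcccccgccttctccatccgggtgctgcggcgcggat
Atp5k (chr5:108434400-108434649, minus strand): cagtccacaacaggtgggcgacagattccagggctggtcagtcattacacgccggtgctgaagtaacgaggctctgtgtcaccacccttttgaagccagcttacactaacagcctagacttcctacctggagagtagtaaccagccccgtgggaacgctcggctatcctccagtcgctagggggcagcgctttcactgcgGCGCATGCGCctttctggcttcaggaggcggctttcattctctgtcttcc
No motif contains another, and adjoining or overlapping matches are joined in capitals. In these 250 bases the NRF1 motif was found in Atp5g2 and Atp5k and the estrogen-related receptor motif in Atp5g3, while the hypoxia core was found in Atp5g1, Atp5g2 and Atp5g3. With the 50 bases after the start included, Atp5g3 also had the NRF1 motif and Atp5k the estrogen-related receptor and GABP motifs.

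RefSeq windows from 250 bases before to 50 after the start were matched for 35 of the 45 genes. Atp5a1, Cox4i1, Cox4i2, Cox6a2, Cox6c, Cox8c, Cyc1, Uqcrb, Uqcrc2 and Uqcrq were not among them. The NRF1 motif was present in 8 of the 35 windows (22.9%, against 5.19% of the windows of all 27025 genes), the GABP motif in 10 (28.6% against 9.93%), the estrogen-related receptor motif in 4 (11.4% against 5.38%) and the hypoxia core in 13 (37.1% against 21.8%). These are counts of letters and not of bound sites. Of the 8 genes with the NRF1 motif 7 were lower in FeD kidneys and Atp5g2 was not called, and of all 35 matched genes 31 were lower.

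Other genes of the same route were read from lists by name. All 4 complex II genes were lower (median −0.65), and 42 of the 44 tested genes of the complex I list were lower and 0 higher (median −0.53), Ndufb2 (−1.11) and Ndufs8 (−0.99) most. That list holds every Nduf symbol, so it includes 7 assembly factors and Ndufa4, now counted as a complex IV subunit and named here after its value was seen (−0.90 ± 0.07, Padj = 7.9e-05). Of the genes that assemble complex III, 5 of 6 were lower and 1 was higher. Bcs1l (−0.86) and Lyrm7 (−0.66), which handle the Rieske protein, fell, and Ttc19, which clears its processing fragments, rose (0.42). Of the genes for assembly of complex IV and for its heme a, 12 of 23 tested were lower and 1 was higher, with Cmc2 (−0.93) and Coa3 (−0.70) at the low end and Cmc1 (0.44) the only gene to rise. Cox10 and Cox15, which turn heme b into heme a and are named for that step, were also lower (−0.58 and −0.28). Of the genes for assembly and inhibition of ATP synthase, 4 of 5 were lower, among them Usmg5 (−0.69), a small subunit of the enzyme, and Atpaf2 (−0.56), a chaperone of the alpha subunit.

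Genes of mitochondrial mass were mostly lower (9 of 11, median −0.35), with the scaffold protein Phb (−0.77) and citrate synthase Cs (−0.53) lowest, but Tomm20, an import receptor of the outer membrane, was higher (0.62). Of 15 regulators of mitochondrial genes, 5 were lower and 3 higher, which is near the background of 23.3% lower and 22.4% higher among all tested genes. Esrra, which encodes the estrogen-related receptor alpha, had 2312, 2194 and 2682 counts in control and 1265, 1005 and 1011 in FeD kidneys (−1.13 ± 0.11, Padj = 0.00017), and Ppargc1b, a coactivator, was also lower (−0.82), while Yy1 (0.34) and Ppargc1a (0.30) were higher. The gene Nrf1, whose motif is described above, was not called (0.03 ± 0.08). Of 8 genes linked to hypoxia-inducible factors, 3 were lower and 3 higher. Bnip3, which marks mitochondria for removal, rose most (1985, 2227 and 1891 counts in control against 5826, 7098 and 4890 in FeD kidneys, 1.55 ± 0.13, Padj = 0.00011), followed by Mxi1 (0.76), while Ndufa4l2 (−0.42) and Higd2a (−0.31) fell. Most genes of complexes I to V were thus lower, as a description of lists without a test of the lists.

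**Figure D5:**
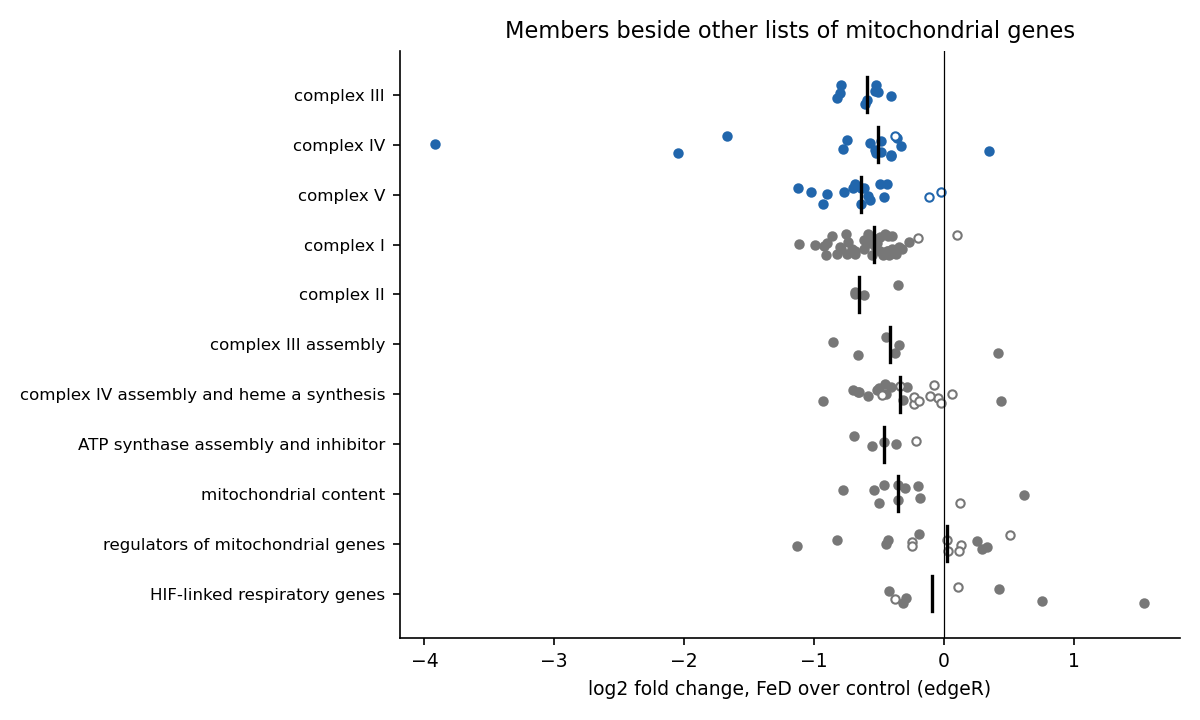
Log2 fold change (FeD over control, horizontal axis) of the tested genes of complexes III, IV and V (blue) and of other lists of mitochondrial genes (grey), with black bars at the medians and open points for genes that did not pass Padj under 0.05. The medians of complexes I to V lie between −0.65 and −0.50, those of the regulators and of the genes linked to hypoxia-inducible factors near 0; Cox4i2 and Ndufa4l2 stand in 2 lists.

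Markers of nephron segments moved beside the respiratory genes. Of the 10 proximal tubule genes 8 were lower and 0 higher, with a sum of 289209 to 310705 normalized counts in control and 199564 to 225171 in FeD kidneys, and Kap and Slc5a12 were not called. Kap alone made up a large part of that sum (mean 138679 in control and 141504 in FeD kidneys). Log2 fold changes of the 10 ran from −4.89 (Slc5a2) to 0.18 (Slc5a12), with a median of −0.78. Of the 4 genes of the thick ascending limb, another segment rich in mitochondria, 0 were called (sum 109260 to 116539 against 82726 to 137222). Of the 3 genes of the distal convoluted tubule 2 were lower (sum 21774 to 27322 against 6191 to 9724), and of the 5 collecting duct genes 4 were higher and 1 lower (sum 20671 to 29477 against 32804 to 53041). None of the 3 podocyte genes was called (sum 10740 to 11875 against 8751 to 12476). In the lists of other cells, 2 of 3 endothelial genes were lower (sum 7242 to 7785 against 5487 to 7238). Of the genes listed as erythroid, 1 of 2 tested was lower (sum 2469 to 3440 against 778 to 1523), with Hba-a1 and Hbb-b1 at 0 counts. The lower gene was Slc4a1, which made up most of the sum (mean 2450 in control and 907 in FeD kidneys). Alas2 (mean 528 against 235) was not called. Among smooth muscle and pericyte genes 3 of 5 were higher and 1 lower (sum 11544 to 12625 against 18962 to 23179). Of 3 macrophage genes 1 was higher and 1 lower (sum 1557 to 1593 against 1165 to 1439), and the 3 testis genes had too few counts to be tested. The part of these shifts in the fall of the respiratory genes was not tested.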

How the data were processed

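Libraries were made by the authors from polyadenylated whole-kidney RNA (TruSeq) and sequenced as single-end reads of 100 bases on a HiSeq2000 with CASAVA 1.8.2. Per the labels and the study's methods, reads were trimmed with Trimmomatic and aligned to mm9 with TopHat2 2.0.11, unique alignments were kept, and HTSeq gave the deposited raw count per gene and kidney. The gene annotation, counting mode and strand setting are not given in the sources used here. Unique alignment removes reads of near-identical copies, which were sought by BLAST 2.17.0 of GENCODE vM1 transcripts against mm9 and touch part of the coding sequence of 12 of the 45 genes.

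Groups came from the labels. The counts of 24422 genes entered edgeR 4.0.16 (R 4.3.3): filterByExpr (15145 genes left), TMM, and the quasi-likelihood test of FeD against control over all 6 kidneys without covariates, adjusted by Benjamini-Hochberg over all tested genes. The SE of a log2 fold change is its size over the square root of F. Isoform ratios were compared by exact two-sided permutation over kidneys, pairs with a group mean under 10 counts excluded. DESeq2 1.42.0, RLE size factors, library size alone, other filters on low counts, the replicate number as a block, each kidney left out and, added after seeing the data, a correction for exon length were the alternatives. No replicates were identical: counts of the same group differed by 3.77 times sampling noise (chi-square per degree of freedom) or more. Litters are not given, so P values measure the spread between these kidneys.

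The genes and the lists beside them were chosen with earlier results of these data known. Named with values in every kidney were paralogous pairs, genes called with at least 2-fold change, and the 3 called genes with the largest change in each direction within each complex, and from each list at most 2 called genes in each direction. The others were named to place a range or a role. Promoter windows came from RefSeq (GRCm38.p6). Proteins were not printed.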

Additional observations from a re-analysis of the deposited data

How the results depend on the processing

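Of 601 values of single genes under 14 alternatives, 588 kept their direction and their side of the threshold, 8 kept the direction and lost the call, and 5 changed sign. DESeq2, RLE size factors, library size alone and no filter on low counts changed no call among the 43 genes. A minimum of 10 counts in every kidney changed none of the 42 it left, Cox6a2 dropping out. Leaving out globin and mitochondrially encoded rows returned the counts of the main fit (3527 of all genes lower and 3397 higher). It is therefore no separate check, although its 43 values are among the 588. Demanding a 2-fold change left 5 genes lower (0 in complex III, 3 in complex IV, 2 in complex V) and 0 higher. The correction for exon length, chosen after seeing the data, moved the median log2 fold change to −0.46 over all genes, −0.45 in complex III and −0.36 in complex IV. It turned Atp5g2 to 0.066 (Padj = 0.42) and Atp5s to 0.12 (Padj = 0.54), which were not called in either case. It ended the calls of Cox6a1 and Cox8a. Cox7c (Padj = 0.05) and Cox4i1 (−0.22, Padj = 0.047) stayed just within the threshold.

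With each kidney left out in turn, 37 to 39 genes were lower and 0 to 1 higher. The range of log2 fold changes was −0.46 to −0.30 for Cox4i1, −0.42 to −0.27 for Cox8a, 0.30 to 0.45 for Cox7a2l and −0.14 to 0.086 for Atp5s, and that of the Cox4i2 to Cox4i1 ratio was −0.091 to 0.13. The calls of Cox4i1 and Cox8a were lost without control kidney 2 or 3 and that of Cox7a2l without control kidney 1 or 3; the cause was not tested. The labels give replicate numbers 1 to 3 in both groups, but same-numbered kidneys come from different dams and did not deviate together (correlations −0.16, 9.6e-05 and −0.03). With the replicate block 39 genes were again lower and no call changed. With 3 kidneys a group the isoform ratios cannot reach an exact P under 0.10, and Cox4i2, Cox6a2, Cox7b2 and Cox8c are limited by their low counts.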

Other observations

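Among the genes read beside the respiratory complexes, Ndufs5, a small accessory subunit of complex I, and Sco2, a copper chaperone of complex IV, were listed at 0 counts in all 6 kidneys. The testis isoform Cox7b2 and the hemoglobin genes Hba-a1 and Hbb-b1 were also listed at 0 counts in all. Every other gene of the complex I list had counts in each kidney and was tested. The counting mode is not given, and the reason for these zeros was not tested. They are named here after their values were seen.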
